A study of Mus musculus with 12 samples.

Results

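The claudins described here are 9 of the 22053 gene rows of the deposited expression table, Cldn1, Cldn2, Cldn3, Cldn4, Cldn7, Cldn8, Cldn10, Cldn16 and Cldn19, taken by gene symbol because each marks a stretch of the renal tubule or its capsule. All 9 passed the filter on low values, which kept 13148 genes. RNA was sequenced from whole kidneys of 12 C57BL/6 mice, 4 in each of 3 groups. CKD mice ate a 0.2% adenine diet from 8 to 16 weeks of age, and control mice ate the matching diet with the adenine left out. Every week, CKD+Fe mice, which ate the adenine diet too, were injected i.p. with 0.5 g/kg iron dextran, and the mice of the other groups with PBS, by the study's methods. Adenine feeding injures the tubules of the whole kidney, and the labels name no line, transgene or batch. Levels are FPKM, fragments scaled to transcript length and to the mapped total of the library, so they can be compared between genes.

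Claudins are membrane proteins whose extracellular loops meet across neighboring epithelial cells in the tight junction, and the set of claudins in a segment decides whether the path between cells passes cations, anions or water. Proximal tubules are leaky and carry Cldn2, a cation and water pore, together with the anion-selective form of Cldn10. The thick ascending limb reabsorbs calcium and magnesium between its cells through Cldn16 and Cldn19 and sodium through the cation-selective form of Cldn10, whereas the tight distal nephron and collecting duct carry Cldn3, Cldn4, Cldn7 and Cldn8. Cldn1 is best known from the parietal epithelium of Bowman's capsule.

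In CKD, the distal and collecting duct claudins Cldn3, Cldn4 and Cldn7 and the capsule claudin Cldn1 were higher and Cldn10 was lower than in control kidneys. Cldn1, Cldn3, Cldn4 and Cldn7 were higher in each of the 4 CKD mice than in any control mouse, by 2.06 to 2.99 on the log2 scale, while Cldn10 was lower in each of them, by 1.14. With Cldn16, every CKD mouse lay above every control for 5 of the 9 claudins, and below for 1. Of 13132 genes, 44.6% lay above and 10.4% below in this way. Cldn16 and Cldn19 of the thick ascending limb and Cldn8 had smaller rises, whose calls depended on the scaling. The Cldn16 and Cldn8 calls were lost after median-of-ratios rescaling, described below, and that of Cldn19 under 1 form of it. The Cldn8 call was also lost when any of 5 mice was left out. Whether Cldn2 was called lower depended on 1 control mouse and on the scaling and weighting of the mice. Iron dextran left none of the 9 claudins with an adjusted p under 0.05 against CKD. Of the 9 claudins, 7 were called higher and 1 lower in CKD, where 54.6% of all tested genes were called higher and 13.3% lower (limma on log2(FPKM + 1), Benjamini-Hochberg adjusted p under 0.05).

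The mice of a group are listed in the order of their label numbers, which is 012811, 012822, 042301 and 042310 for control, 021320, 022301, 110310 and 120102 for CKD, and 042702, 062910, 111710 and 122320 for CKD+Fe. In each group 1 mouse lay apart, with 442 to 806 genes at least 2-fold from the other 3, against 42 to 225 in the other mice. These were control mouse 042301, CKD mouse 110310 and CKD+Fe mouse 042702. In control mouse 042301 the 8 collecting duct principal cell markers summed to 2003 FPKM, against 479 to 646 FPKM in the other controls, and the 10 proximal tubule markers to 4967 FPKM, against 6300 to 7078 FPKM. The median log2 fold change of all tested genes in CKD was 0.50, and it was 0.012 after median-of-ratios rescaling, which divides each mouse by its median ratio to the geometric mean of all mice. Claudin changes should be read against that shift. With the rescaling, 5 of the 9 claudins were called higher and 2 lower in CKD, where 28.8% of tested genes were higher and 29.3% lower.

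**Figure D1:**
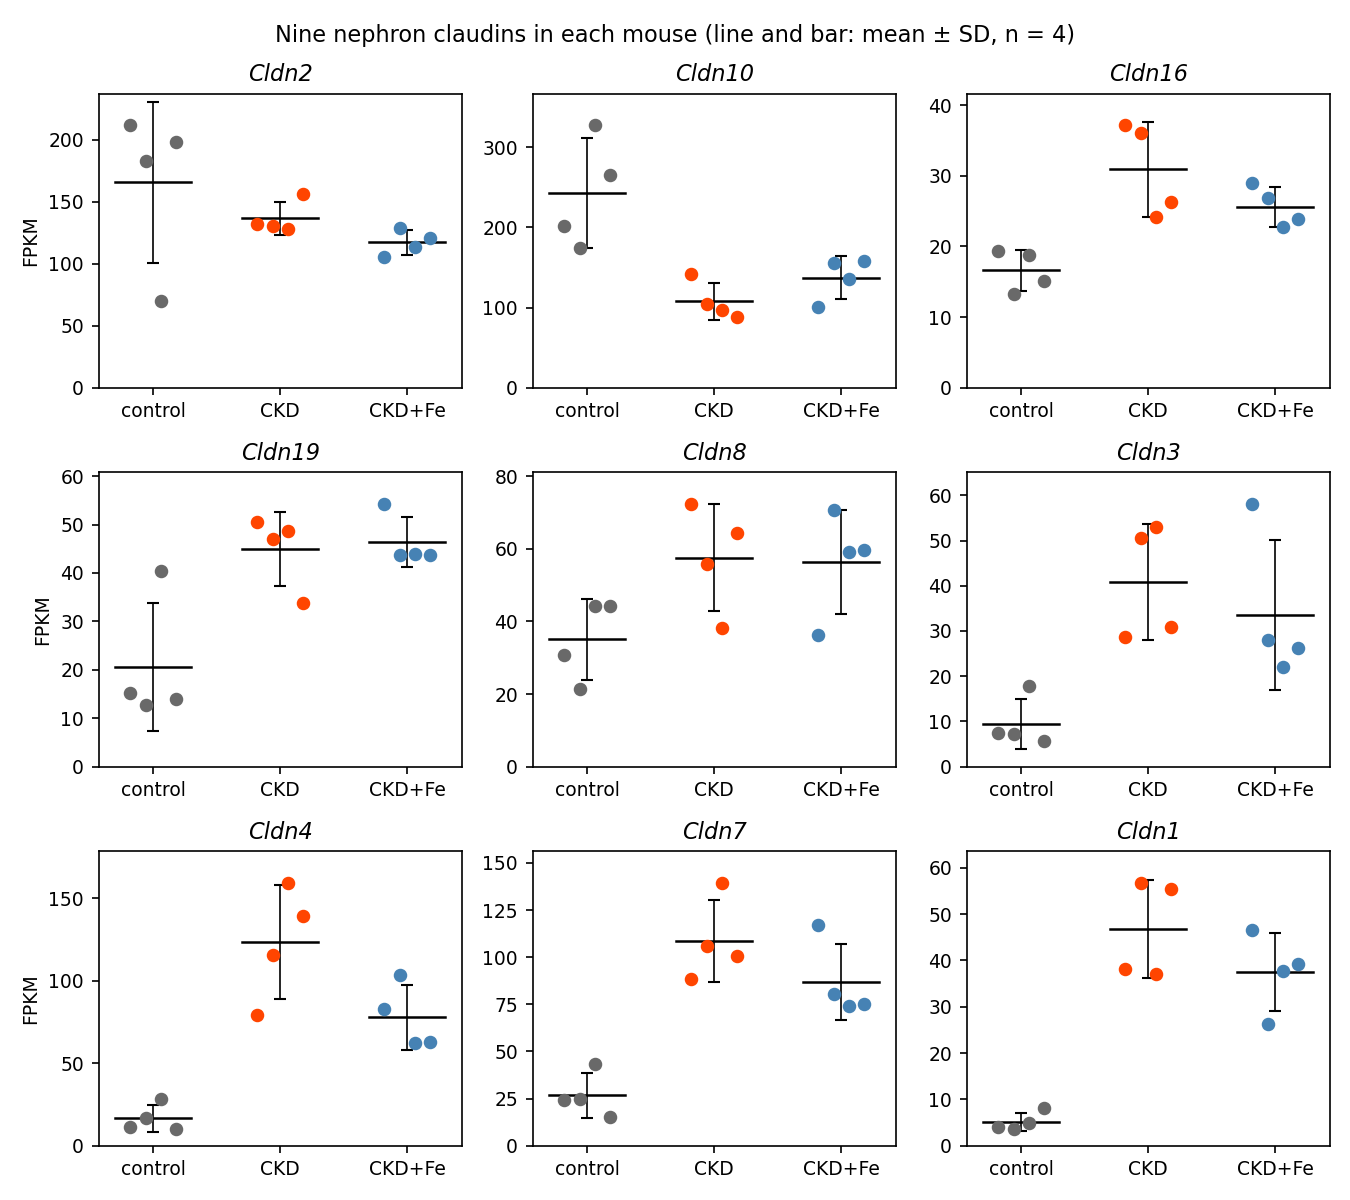
FPKM of each of the 9 claudins (y axis, linear, starting at 0) in each mouse (points) of the control, CKD and CKD+Fe groups, with the group mean and SD (n = 4). Cldn1, Cldn3, Cldn4, Cldn7 and Cldn16 sit higher in every CKD and CKD+Fe mouse than in any control, and Cldn10 sits lower. For Cldn2, 1 control point lies at 69.9 FPKM, below all others.

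The stretches of DNA just before the start sites are shown for the claudins with the largest rises, Cldn4 and Cldn1, and for both start sites of Cldn10, the claudin that fell. Promoter windows of 250 bases upstream of RefSeq starts (GRCm38.p6) were found for 8 of the 9 claudins, in 11 windows. Each window was searched on both strands for TGANTCA, the AP-1 letters, GTTAAT, a core of the HNF1 site, AACCNGTT of the grainyhead-like factors and CAAAGTCCA of HNF4, and the matches are in capitals. The Cldn4 window (chr5:134946935-134947184, minus strand) holds 2 matches to TGANTCA, a motif found in 6.75% of 32851 windows of this length. The Cldn1 window (chr16:26371840-26372089, minus strand) and the upstream Cldn10 window (chr14:118787621-118787870, plus strand) hold 1 match each to GTTAAT, which occurs in 6.43% of windows. The downstream Cldn10 window (chr14:118854700-118854949, plus strand) holds none of the 4 motifs, and the other 7 windows hold none either. Windows with AACCNGTT made up 1.79% and those with CAAAGTCCA 0.384% of all windows. The Cldn10 windows differ in base composition, with 36.0% G and C upstream and 72.4% downstream.
Cldn4: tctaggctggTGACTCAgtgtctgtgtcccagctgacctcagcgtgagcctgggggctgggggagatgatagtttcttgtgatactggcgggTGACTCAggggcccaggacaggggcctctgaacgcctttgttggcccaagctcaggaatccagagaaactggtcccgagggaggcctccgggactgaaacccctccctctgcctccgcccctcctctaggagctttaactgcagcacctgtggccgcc
Cldn1: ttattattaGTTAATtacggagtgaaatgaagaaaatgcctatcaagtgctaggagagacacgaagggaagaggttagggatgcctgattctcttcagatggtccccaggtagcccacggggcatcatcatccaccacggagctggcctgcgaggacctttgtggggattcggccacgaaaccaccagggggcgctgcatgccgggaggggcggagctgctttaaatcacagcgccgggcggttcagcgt
Cldn10 upstream start: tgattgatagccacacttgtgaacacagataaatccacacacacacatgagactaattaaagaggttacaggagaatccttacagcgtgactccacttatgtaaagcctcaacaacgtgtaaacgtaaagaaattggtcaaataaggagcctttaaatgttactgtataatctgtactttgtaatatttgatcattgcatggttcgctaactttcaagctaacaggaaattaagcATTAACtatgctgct
Cldn10 downstream start: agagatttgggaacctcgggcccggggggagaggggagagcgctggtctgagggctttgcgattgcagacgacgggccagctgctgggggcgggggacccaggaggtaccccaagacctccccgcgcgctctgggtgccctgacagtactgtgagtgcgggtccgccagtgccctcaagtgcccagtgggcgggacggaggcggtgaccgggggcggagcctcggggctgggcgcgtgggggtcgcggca

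Cldn10 and Cldn2 were the most abundant claudins of the control kidney. Cldn10 lies on chromosome 14 (118787908-118875489, plus strand, GRCm38), and its start sites give forms with different first exons and opposite ion selectivity, which the gene-level FPKM cannot separate. Cldn10 measured 202, 174, 328 and 266 FPKM in control mice, 142, 104, 97.0 and 88.4 FPKM in CKD mice and 100, 155, 136 and 158 FPKM in CKD+Fe mice. Every CKD and CKD+Fe mouse lay below every control mouse, and the CKD and CKD+Fe mice overlapped. In CKD against control it fell to a log2 fold change of -1.14 (SE 0.22, limma adjusted p = 0.000407), and -1.72 after median-of-ratios rescaling (adjusted p = 2.34e-05). Cldn10 was also lower in CKD+Fe than in control, at -0.79 (limma adjusted p = 0.00547), a call lost under quantile normalization (-0.53, adjusted p = 0.0673). The difference between CKD+Fe and CKD was 0.35, with a 95% interval from -0.11 to 0.81 (limma adjusted p = 0.912). Cldn10 was the only claudin of the 9 whose log2 fold change in CKD was negative under each alternative run and past the threshold under each.

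Cldn2, on the X chromosome (139800828-139811386, plus strand), forms the cation and water pore of the proximal tubule. It measured 212, 183, 69.9 and 198 FPKM in control mice, 132, 130, 128 and 156 FPKM in CKD mice and 105, 129, 114 and 121 FPKM in CKD+Fe mice. Among controls 3 mice lay above all CKD and CKD+Fe mice, and control mouse 042301, the mouse with the high principal cell and low proximal tubule markers, lay below them all. Against control the CKD value was -0.16 on the log2 scale (95% interval -0.74 to 0.42, limma adjusted p = 0.612). Without control mouse 042301 it was -0.53 (limma adjusted p = 0.00187) in CKD and -0.75 (adjusted p = 0.000194) in CKD+Fe, both against control. Median-of-ratios rescaling of all 12 mice gave -0.73 for Cldn2 in CKD (adjusted p = 0.0418) and array weights, which give mice that vary more less weight, gave -0.44 (adjusted p = 0.0308), whereas quantile normalization and equal FPKM totals turned the sign, to 0.15 and 0.11. CKD+Fe and CKD differed by -0.22 (95% interval -0.80 to 0.37, limma adjusted p = 0.982).

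Both claudins were compared with the markers of their segment in the same mouse, which needs no scaling between mice. Of the 10 proximal tubule markers 9 were called lower in CKD and none higher, where 13.3% of tested genes were lower and 54.6% higher. The median log2 fold change of the 10 was -1.85, and Slc22a6, the organic anion transporter, went from a mean of 296 to 38.1 FPKM. Acsm2, an acyl-CoA synthetase of the proximal tubule, went from 1674 to 128 FPKM and Lrp2, the endocytic receptor megalin, from 92.2 to 29.1 FPKM. The log2 ratio of Cldn2 to the mean of these markers averaged -0.74 ± 0.54 (SD, n = 4) for controls, against 1.09 ± 0.37 for CKD and 0.41 ± 0.55 with iron. Each CKD and CKD+Fe mouse had a higher ratio than any control, so Cldn2 was higher relative to the other proximal markers, and the ratio was 1.58 higher in CKD without control mouse 042301 and 1.83 with it. The ratio of Cldn10 to the same markers was 0.85 higher in CKD, with overlapping mice. Set against the 5 markers of the thick ascending limb, Cldn10 was 0.63 lower in CKD, again with overlap, and that difference was 0.0059 when the median of the 5 markers was used in place of their mean. In whole kidney RNA, fewer cells of a segment and less RNA per cell cannot be told apart.

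**Figure D2:**
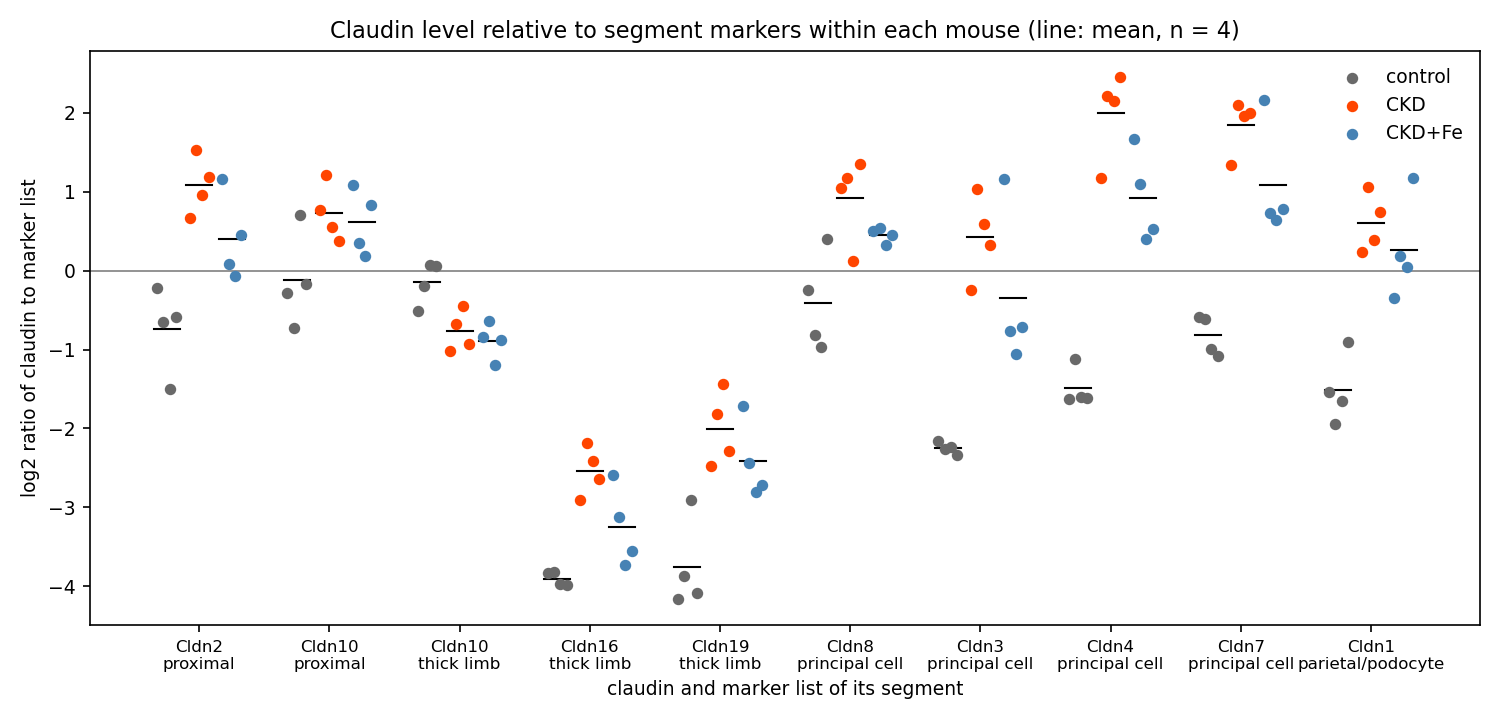
Log2(FPKM + 1) of each claudin minus the mean of the markers of the named segment in the same mouse (y axis), for control (gray), CKD (orange) and CKD+Fe (blue) mice, with the mean of 4 mice as a line. The principal cell ratios of Cldn3, Cldn4 and Cldn7 are below 0 in every control mouse, and those of Cldn4 and Cldn7 are above 0 in every CKD and CKD+Fe mouse.

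In the thick ascending limb, Cldn16 and Cldn19 form the paired channel for calcium and magnesium, and loss of either causes renal wasting of both ions. Cldn16 (chromosome 16, 26463135-26482765, plus strand) measured 19.3, 13.3, 18.9 and 15.1 FPKM in control mice, 37.2, 36.1, 24.1 and 26.3 FPKM in CKD mice and 28.9, 26.8, 22.7 and 23.9 FPKM in CKD+Fe mice. Both diseased groups lay above the controls in every mouse. Against control, Cldn16 had a log2 fold change of 0.85 (SE 0.17, limma adjusted p = 0.000605) in CKD and 0.60 (adjusted p = 0.00655) in CKD+Fe. After median-of-ratios rescaling these were 0.29 (adjusted p = 0.125) and 0.06 (adjusted p = 0.765). Quantile normalization, which also removes the general shift, kept Cldn16 called in CKD, at 0.50 (adjusted p = 0.0234), as did the rescaling without the 3 mice that lay apart, at 0.43 (adjusted p = 0.0409). In CKD+Fe against control neither setting kept the call, at 0.22 (limma adjusted p = 0.306) and 0.076 (adjusted p = 0.708).

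Cldn19 (chromosome 4, 119255414-119262438, plus strand) measured 15.2, 12.8, 40.5 and 14.1 FPKM in control mice, 50.5, 47.0, 48.6 and 33.8 FPKM in CKD mice and 54.2, 43.8, 43.9 and 43.8 FPKM in CKD+Fe mice. Of the controls, mouse 042301 reached into the CKD range and the other 3 controls lay well below it. Its log2 fold change in CKD was 1.23 (SE 0.28, limma adjusted p = 0.00163), 1.60 without that mouse (adjusted p = 3.25e-06) and 0.68 after median-of-ratios rescaling (adjusted p = 0.048). When the rescaling was computed over every gene above 0 in place of the tested genes, it was 0.64 and not called (adjusted p = 0.0610). CKD+Fe and CKD differed by 0.06 for Cldn19 (95% interval -0.55 to 0.66) and by -0.24 for Cldn16 (-0.61 to 0.12). The antisense gene Gm12927 overlaps Cldn19, and the kit marked strand, but whether strand entered the counting is not given in the sources used here.

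Of the 5 thick limb markers, none was called higher and 2 were called lower in CKD, where 54.6% of tested genes were higher and 13.3% lower. The 2 were Egf, which went from 340 to 67.1 FPKM, and Ppp1r1a, an inhibitor of protein phosphatase, from 161 to 70.5 FPKM. Slc12a1, the cotransporter NKCC2, measured 187 ± 46.1 FPKM (SD, n = 4) in control and 342 ± 195 FPKM in CKD (limma adjusted p = 0.188), and Umod, which encodes uromodulin, 1538 ± 307 and 2075 ± 267 FPKM (adjusted p = 0.0575). Without the 3 mice that lay apart both were called higher, Slc12a1 at 1.27 (limma adjusted p = 0.00118) and Umod at 0.57 (adjusted p = 0.0137). Beside the fits that left out 1 mouse, Slc12a1 was called higher in 3 of 12 alternatives and Umod in 6, with the sign of Umod turned in 3. Leaving out CKD mouse 110310 alone gave 1.18 for Slc12a1 (limma adjusted p = 0.00292). The log2 ratio of Cldn16 to the 5 markers was -3.90 ± 0.09 in control and -2.54 ± 0.31 in CKD, and that of Cldn19 was -3.76 ± 0.58 and -2.0 ± 0.47. Neither ratio overlapped between control and CKD mice. In CKD+Fe the mean ratios lay between those of the other groups, at -3.25 ± 0.51 and -2.42 ± 0.50. For both ratios the CKD+Fe mice lay above the controls and overlapped the CKD mice. Casr, the calcium-sensing receptor that restrains Cldn16 and Cldn19 in this segment, had a log2 fold change of 0.93 in CKD (limma adjusted p = 0.0392) and 0.43 after median-of-ratios rescaling (adjusted p = 0.329). The Casr call was lost in 6 of the 8 fits that left out a mouse (values over the 8 from 0.69 to 1.30) and in 6 of 12 other alternatives. Cldn14, the blocking partner of Cldn16 downstream of this receptor, was below the filter, where controls held 0.0 to 0.0766 FPKM, CKD mice 0.261 to 0.656 FPKM and CKD+Fe mice 0.206 to 0.418 FPKM. Each CKD mouse was above each control (exact two-sided permutation test, p = 0.0286, the smallest that 4 against 4 mice allow). The same held for 44.6% of 13132 genes that passed the filter.

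The claudins of the distal nephron rose to different degrees. Cldn8 (chromosome 16, 88560828-88563183, minus strand) is the claudin that brings Cldn4 to the junction of the collecting duct. It measured 30.6, 21.3, 44.2 and 44.2 FPKM in control mice, 72.3, 55.7, 38.1 and 64.2 FPKM in CKD mice and 36.3, 70.6, 59.1 and 59.6 FPKM in CKD+Fe mice. One mouse of each diseased group, CKD mouse 110310 and CKD+Fe mouse 042702, lay within the control range. Cldn8 rose by 0.72 on the log2 scale in CKD (SE 0.26, limma adjusted p = 0.0268). The call was lost when any of control mice 012811 and 012822 and CKD mice 021320, 022301 and 120102 was left out (0.51 to 0.72, adjusted p from 0.0504 to 0.0960), and after median-of-ratios rescaling the value was 0.16 (adjusted p = 0.640). Klhl3, the ubiquitin ligase adaptor that targets Cldn8, measured 2.37 ± 1.52 FPKM in control and 2.40 ± 1.37 FPKM in CKD (limma adjusted p = 0.961).

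Cldn3 (chromosome 5, 134986214-134987472, plus strand), a sealing claudin of the distal nephron, measured 7.44, 7.18, 17.7 and 5.76 FPKM in control mice, 28.8, 50.6, 53.1 and 30.9 FPKM in CKD mice and 58.1, 28.0, 22.1 and 26.2 FPKM in CKD+Fe mice. The highest control, mouse 042301, was still below every mouse of both diseased groups. Its log2 fold change in CKD was 2.06 (SE 0.34, limma adjusted p = 0.000156), 2.38 without mouse 042301 and 1.53 after median-of-ratios rescaling (adjusted p = 0.00159). Cldn3 is a single-exon gene overlapped on the other strand by the antisense gene Wbscr25.

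Cldn4, a neighbor of Cldn3 on chromosome 5 (134945119-134946934, minus strand) with 39279 bases and no protein-coding gene between them, limits sodium and passes chloride in the collecting duct. It measured 11.2, 17.0, 28.2 and 10.1 FPKM in control mice, 79.0, 115, 159 and 139 FPKM in CKD mice and 82.6, 104, 62.1 and 62.8 FPKM in CKD+Fe mice. Even the highest control was below the lowest diseased mouse by more than the range of the controls. Against control, Cldn4 had a log2 fold change of 2.88 (SE 0.30, limma adjusted p = 3.26e-06) in CKD and 2.24 (adjusted p = 3.25e-05) in CKD+Fe. After median-of-ratios rescaling the first was 2.33 (adjusted p = 2.57e-05).

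Cldn7 (chromosome 11, 69964779-69967885, plus strand), found at the lateral membrane as well as the junction of distal cells, measured 24.0, 24.6, 43.3 and 15.1 FPKM in control mice, 88.2, 106, 139 and 101 FPKM in CKD mice and 117, 80.5, 74.2 and 75.3 FPKM in CKD+Fe mice. No control mouse reached the level of a diseased mouse. Cldn7 rose by 2.06 on the log2 scale in CKD (SE 0.26, limma adjusted p = 1.56e-05), and 1.49 after median-of-ratios rescaling (adjusted p = 0.000236).

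Of the 8 markers of collecting duct principal cells 2 were called lower and 1 higher in CKD, where 13.3% of tested genes were lower and 54.6% higher. Their median log2 fold change was -0.86, and -0.35 without the 3 mice that lay apart. After median-of-ratios rescaling 6 were lower and 0 higher, beside 29.3% and 28.8% of tested genes. Aqp2, the vasopressin-regulated water channel, had a log2 fold change of -1.24 (limma adjusted p = 0.0415) and Aqp3, its basolateral counterpart, of -1.28 (adjusted p = 0.00139). The Aqp2 call was lost in 5 of the 8 fits that left out a mouse and in 4 of 12 other alternatives, and without control mouse 042301 the value was -0.70 (limma adjusted p = 0.131). The log2 ratio to these markers rose from -2.25 ± 0.07 in control to 0.43 ± 0.54 in CKD for Cldn3, from -1.49 ± 0.25 to 2.0 ± 0.56 for Cldn4 and from -0.82 ± 0.25 to 1.85 ± 0.34 for Cldn7. None of these 3 ratios overlapped between CKD and control mice, while the ratio of Cldn8, from -0.41 ± 0.62 to 0.92 ± 0.55, did. Control mouse 042301 had over 3 times the summed principal cell marker FPKM of any other control. Its Cldn3 ratio was inside the narrow range of the other controls, -2.34 to -2.16. The Cldn4 and Cldn7 ratios of this mouse, -1.60 and -0.997, were inside the range of the other controls too. Its Cldn8 ratio, -0.967, lay below theirs, -0.816 to 0.407. Urothelium also carries Cldn4 and Cldn7. Its 8 markers summed to 1.71 to 147 FPKM in control and 6.39 to 61.4 FPKM in CKD, with 0 called in either direction and a median log2 fold change of -0.0076. Without the 3 mice that lay apart the median was 0.66 and 1 was called higher, where 7811 of 13148 tested genes were. The Cldn4 ratio to these markers was 2.95 higher in CKD with no overlap, at up to 3.35 in control and from 3.50 in CKD. The Cldn7 ratio to the same markers was 2.12 higher and that of Cldn1 3.05 higher, both with overlapping mice.

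Cldn1 (chromosome 16, 26356642-26371841, minus strand) lies 91293 bases from Cldn16 with no protein-coding gene between them. It measured 4.11, 3.55, 4.81 and 8.04 FPKM in control mice, 38.1, 56.7, 37.1 and 55.3 FPKM in CKD mice and 46.6, 26.3, 37.7 and 39.2 FPKM in CKD+Fe mice. The lowest diseased mouse was above the highest control by more than 3-fold. Cldn1 had a log2 fold change of 2.99 (SE 0.23, limma adjusted p = 3.46e-07) in CKD, the largest of the 9 claudins, and 2.47 after median-of-ratios rescaling (adjusted p = 1.31e-06). Its neighbor Cldn16 had 0.85 over the same mice. Of 6 parietal and podocyte markers 3 were called higher in CKD, among them Synpo (log2 fold change 1.26) and Wt1 (1.23), where 54.6% of tested genes were higher, and 1 of the 6 was higher after median-of-ratios rescaling. The log2 ratio of Cldn1 to these markers averaged -1.51 ± 0.44 for controls, against 0.61 ± 0.37 for CKD and 0.27 ± 0.64 with iron, with every diseased mouse above every control.

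**Figure D3:**
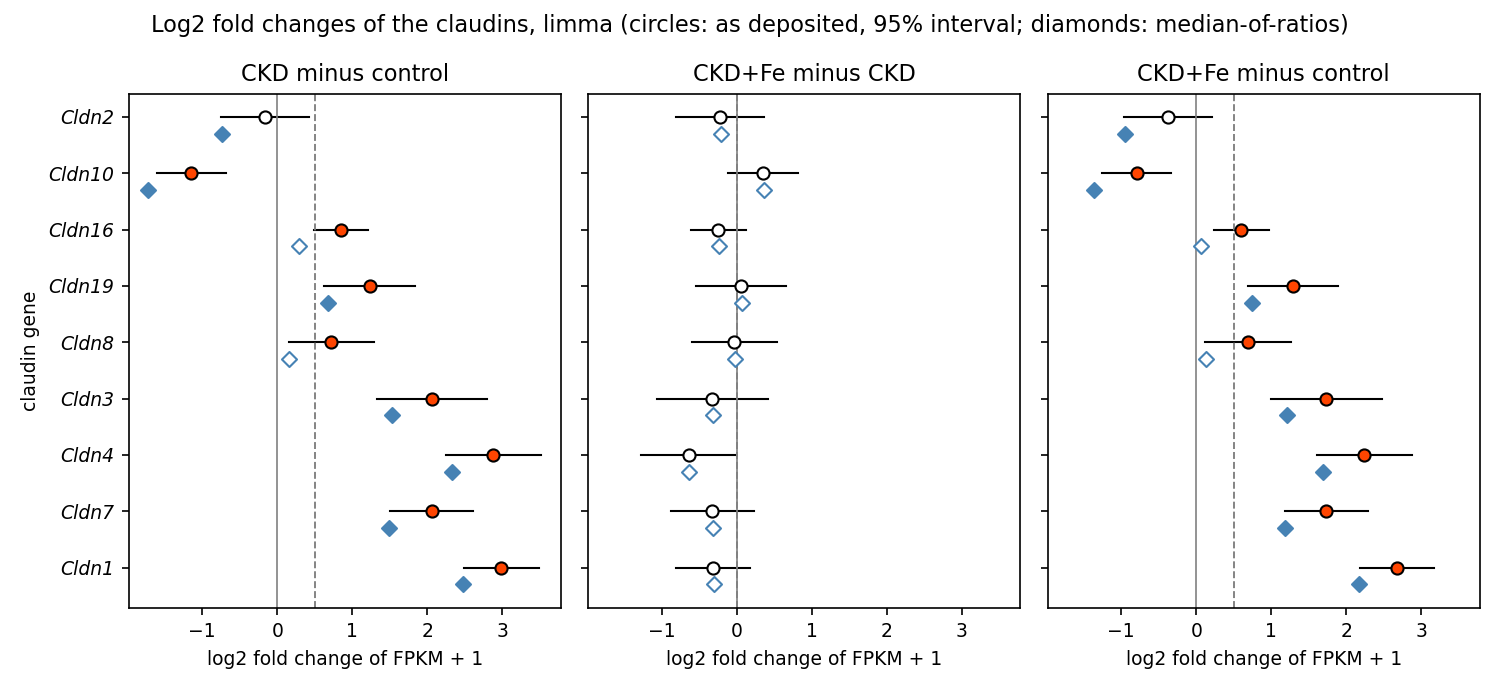
Log2 fold change of FPKM + 1 for each claudin in the 3 comparisons (circles with 95% interval, limma; filled where the adjusted p was under 0.05), with the value after median-of-ratios rescaling as diamonds and the median of all tested genes as a dashed line. In CKD minus control the values run from -1.14 for Cldn10 to 2.99 for Cldn1, and in CKD+Fe minus CKD no symbol is filled.

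These changes remade the pool of claudin transcripts. The 9 claudins summed to 539 ± 61.6 FPKM (SD, n = 4) in controls, to 697 ± 23.7 FPKM with CKD and to 619 ± 38.6 FPKM with iron added. These are FPKM as deposited, in which all tested genes had a median log2 fold change of 0.50 in CKD. The sums were not recomputed after rescaling, so they do not show that the pool grew. Shares within a mouse need no such rescaling. Cldn2 and Cldn10 together made up 76.1% ± 6.2 of the claudin sum in controls, against 35.2% ± 4.2 with CKD and 41.2% ± 5.9 with iron added. Cldn1, Cldn3, Cldn4 and Cldn7, the 4 with the largest rises in these mice, together made up 10.7% ± 3.9, 45.6% ± 7.7 and 38.0% ± 7.0. They were grouped by that rise and not by segment, so the change of their share is a description only. Cldn8, also of the distal nephron, made up a mean of 6.4%, 8.3% and 9.1% in the same order. Neither share overlapped between control and diseased mice, and both overlapped between CKD and CKD+Fe. By level, Cldn10 led in control at 242 FPKM, followed by Cldn2 at 166 FPKM with overlapping mice, and the next, Cldn8 at 35.1 FPKM, lay below both in every mouse. In CKD the leading 4 were Cldn2, Cldn4, Cldn7 and Cldn10, at 137, 123, 109 and 108 FPKM, and each overlapped its neighbor in that order. Cldn1, the lowest in control, stood sixth in CKD at 46.8 FPKM, and Cldn16 was last in CKD and CKD+Fe.

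**Figure D4:**
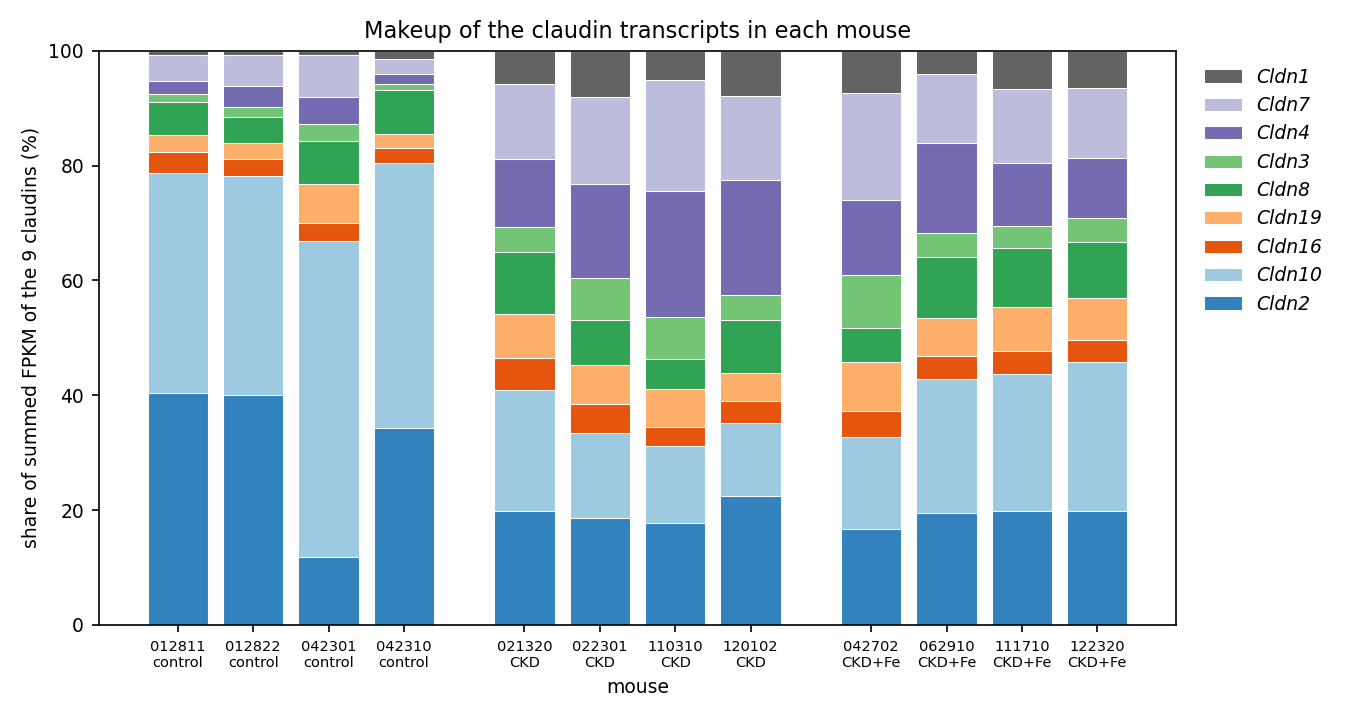
Share of the summed FPKM of the 9 claudins taken by each (y axis, %), 1 bar per mouse. Cldn2 and Cldn10 (blue) fill 66.8% to 80.5% of the control bars and 31.1% to 45.8% of the CKD and CKD+Fe bars.

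For all 9 claudins the mice of CKD+Fe and CKD overlapped, and 0 were called in either direction, against 0.00761% of tested genes called higher with iron and 0.0% lower. Every CKD+Fe mouse lay above every CKD mouse for 1.35% of 13132 genes, and below for 1.08%. Of the 13148 tested genes, 790 had an unadjusted limma p under 0.05, a threshold that a share of 0.05 of unchanged genes would pass by chance. Array weights gave 79 genes higher and 56 lower at the adjusted threshold, with 0 of the 9 claudins among them. Of the 9 claudins, 7 had a negative log2 fold change. Cldn4 had the largest, -0.64 (SE 0.30, 95% interval -1.28 to -0.01, limma adjusted p = 0.828). Before adjustment its p was 0.0477 by limma, the only one of the 9 under 0.05, and the exact two-sided permutation test gave 0.0857. The intervals of Cldn1 (-0.81 to 0.18), Cldn3 (-1.06 to 0.41), Cldn7 (-0.88 to 0.23) and Cldn8 (-0.60 to 0.54) include 0 and do not show that iron left these genes alike. The 11 injured tubule markers had a median log2 fold change of -0.60 in the same comparison, with none called, and the 10 proximal tubule markers one of 0.43, with none called.

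Against control, CKD+Fe showed 7 claudins higher and 1 lower, where 54.4% of tested genes were higher and 11.0% lower. After median-of-ratios rescaling 5 were higher and 2 lower, beside 3636 and 3618 of 13148 tested genes. With quantile normalization 5 were higher and 0 lower, beside 2605 and 2967 of them. Every CKD+Fe mouse lay above every control for 6 claudins and below for 1, where 50.4% of 13132 genes lay above and 9.82% below. In CKD these were 5 and 1, where 44.6% of 13132 genes lay above and 10.4% below in every mouse. Both comparisons use the same control mice. The log2 fold change against control was 2.99 in CKD and 2.67 in CKD+Fe for Cldn1, 2.06 and 1.73 for Cldn3, 2.88 and 2.24 for Cldn4, and 2.06 and 1.73 for Cldn7.

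Markers of other cells and states rose in the same kidneys. All 11 injured tubule markers were called higher in CKD, where 54.6% of tested genes were called higher. The median log2 fold change of the 11 was 3.89. Among them were Lcn2, from 8.72 to 1109 FPKM, and Havcr1, from 1.72 to 189 FPKM, and all 8 macrophage and 6 fibroblast markers were called higher as well. The 11 injury markers summed to 553 to 913 FPKM for controls, to 11150 to 20016 FPKM for CKD mice and to 8055 to 14301 FPKM with iron. Their part in the claudin levels was not tested.

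Other claudins were mostly at low levels. Of a further 20 claudin genes 19 were matched in the table and 5 passed the filter. Of these 5, Cldn6 and Cldn23 were called higher in CKD, where 54.6% of tested genes were called higher. Cldn6, a claudin of embryonic and newborn epithelia, went from 0.863 to 1.35 FPKM in control mice to 5.22 to 10.5 FPKM in CKD mice and 3.01 to 4.61 FPKM in CKD+Fe mice. The 3 groups did not overlap for Cldn6, whose log2 fold change was 1.98 in CKD against control (limma adjusted p = 1.41e-06) and -0.80 in CKD+Fe against CKD (adjusted p = 0.275, exact two-sided permutation p = 0.0286). With array weights Cldn6 was called lower in CKD+Fe than in CKD (-0.75, limma adjusted p = 0.0475), the only one of 11 alternatives beside the leave-one-out fits to do so. Cldn23 rose by 0.81 on the log2 scale in CKD (limma adjusted p = 0.00498), from levels of 0.0 to 0.408 FPKM in control to 0.439 to 1.61 FPKM in CKD, and was not called under quantile normalization (0.21, adjusted p = 0.417). Cldn5 of the endothelium, Cldn12 and Cldn15 were not called, at 0.32, 0.07 and -0.10.

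Claudins are held in the junction by scaffold and membrane partners. Of 24 partners 15 were called higher and 2 lower in CKD, near the 54.6% of all tested genes called higher, and beside 13.3% called lower. The partners had a median log2 fold change of 0.73 beside 0.50 for all tested genes. After median-of-ratios rescaling 7 were higher and 5 lower, beside 28.8% and 29.3% of tested genes. Tjp1, the scaffold ZO-1, had the largest rise, 1.51 (limma adjusted p = 3.49e-05), from 7.08 ± 1.15 to 22.7 ± 6.77 FPKM. Cgn, which encodes cingulin, a link between the junction and actin, rose by 1.31 (adjusted p = 2.68e-05) and Ocln, occludin, by 0.89 (adjusted p = 0.00106). Tjp1 and Cgn stayed called after the rescaling, and Ocln did not (0.36, adjusted p = 0.117). In CKD+Fe against CKD 0 of the 24 were called by limma, as was the case for the 12 genes listed as regulators of claudins.

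**Figure D5:**
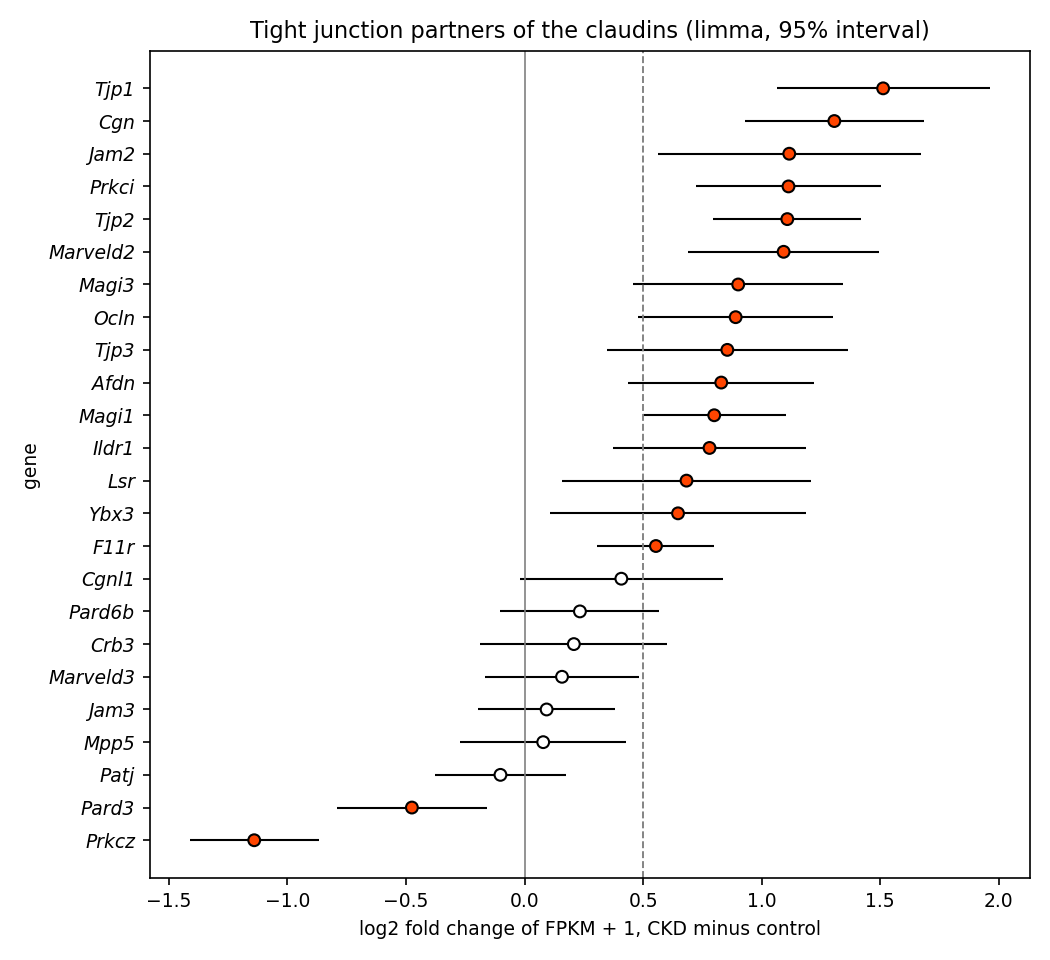
Log2 fold change of FPKM + 1 in CKD minus control for the 24 junction partners (circles with 95% interval, limma; filled where the adjusted p was under 0.05), with the median of all tested genes as a dashed line. Tjp1 is at the top with 1.51 and Prkcz at the bottom with -1.14.

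Among the 12 regulators, 3 were called higher and 3 lower in CKD, where 54.6% of tested genes were higher and 13.3% lower. The largest changes were falls, of Hnf4a, the nuclear receptor of the proximal tubule, at -1.52 (limma adjusted p = 9.53e-05, with 1 mouse of each group missing because its estimate was marked as failed) and of Pth1r, the parathyroid hormone receptor, at -1.50 (adjusted p = 9.09e-05).

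By the course of log2(FPKM + 1) over the 12 mice relative to the control mean, the tested genes nearest to each claudin were ranked by root mean square difference. Those of Cldn3 were Pycard, Cacnb3 and Cldn7, at 0.21 to 0.23, and those of Cldn7 were Pycard, Shisa4 and Elf3, at 0.17 to 0.19. Cldn4 was followed by Plac8, Fosl2 and Ctxn1, at a wider 0.30. Cldn1 ran closest to Cybb, a subunit of the phagocyte NADPH oxidase, at 0.16, then to Thbs2 and Nckap1l. Cldn10 ran with Apoo, Dnajc19 and Iscu, 3 genes of mitochondrial proteins, at 0.19 to 0.23. The nearest of Cldn2 was Nubpl, of Cldn8 Tspan12 and of Cldn19 Exosc8, each at 0.17. These distances were computed over the same 12 mice and carry no test.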

How the data were processed

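The authors isolated total RNA from whole kidneys, prepared stranded mRNA libraries and sequenced them over 50 cycles. The submitters' processing notes name bcl2fastq 2.19, STAR 2.5.2, Cufflinks 2.1.1 and GRCm38. The authors deposited FPKM values, 1 per gene and mouse, so the depth in reads is unknown and no count test or counting interval was made. FPKM are relative to each mouse's own total, and no spike-in was used here. Failed estimates (30 values in 17 genes, none in the 9 claudins) were treated as missing.

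In R 4.3.3, limma 3.58.1 fitted Log2(FPKM + 1) in 1 model of all 12 mice with moderated variances that follow a trend. Tested were 13148 genes that reached 1 FPKM in 4 mice or more, and two-sided p values were adjusted over them by Benjamini-Hochberg, with a threshold of 0.05. A pseudocount understates the change of low genes. The exact permutation test enumerated 70 arrangements of 4 against 4 mice. The labels give separate mice. The code was tested on simulated data. Positions are 1-based, GRCm38.

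The claudins were named by symbol. Of each other list, the 2 genes with the largest change called in CKD and a few set by name (Slc12a1, Umod, Lrp2, Aqp2, Casr, Klhl3, Cldn14, Tjp1, Ocln) were given values, and other claudins where called; other genes appear in a count or as neighbors in likeness. The neighbors of Cldn16 are not reported here. Members and lists were chosen with earlier results of these data known, and list counts are descriptions. Of 149 listed genes 148 were matched.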

Additional observations from a re-analysis of the deposited data

Results flagged for a closer look

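In 6 of the 27 sets of 4 mice (9 claudins in 3 groups), 1 mouse lay so far from the other 3 that its gap to the nearest, over the range of the set, exceeded the 95% critical value of Dixon for 4 values. Chance gives about 1 in 20 such sets only if the sets are independent and their values normally distributed. The 9 claudins were read in the same mice, so the sets are not independent, and the values were untransformed FPKM. The count of 6 is therefore a description and does not measure an excess over chance. Control mouse 042301 was high for Cldn3, at 17.7 FPKM against 5.76 to 7.44 FPKM in the other controls, and for Cldn19, at 40.5 FPKM against 12.8 to 15.2 FPKM. CKD+Fe mouse 042702 was high for Cldn3, at 58.1 FPKM against 22.1 to 28.0 FPKM, for Cldn7, at 117 FPKM against 74.2 to 80.5 FPKM, and for Cldn19, at 54.2 FPKM against 43.8 to 43.9 FPKM. CKD mouse 120102 was high for Cldn2, at 156 FPKM against 128 to 132 FPKM. Both 042301 and 042702 are mice with many genes at least 2-fold from the rest of their group. In mouse 042702 the 10 proximal tubule markers summed to 840 FPKM, against 1561 to 2121 FPKM in the other CKD+Fe mice. Its part in these values was not tested.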

How the results depend on the processing

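Each comparison was recomputed with another pseudocount (0.1), without a filter, with a stricter filter, with 3 other scalings, with only the groups compared, with array weights, without a variance trend and with each mouse left out. Leaving out the 3 mice that lay apart, alone or with median-of-ratios rescaling, and rescaling over every gene above 0 were added after seeing the data. The rises of Cldn1, Cldn3, Cldn4 and Cldn7 and the fall of Cldn10 in CKD kept their direction and passed the threshold in each of these. Claudins higher in CKD numbered 4 with rescaling over every gene above 0, and 6 to 7 when a mouse was left out. Claudins lower in CKD numbered 2 with median-of-ratios rescaling in each of its 3 forms, with array weights and without the 3 mice, and 1 to 2 with a mouse left out. Against control, CKD+Fe had 2 claudins lower in the same settings, 0 with quantile normalization, and 6 to 7 higher and 1 to 2 lower with a mouse left out. Claudins higher in CKD+Fe than in control numbered 5 to 7 over the other alternatives. With the median of the thick limb markers in place of the mean, the Cldn10 ratio moved to 0.0059 in CKD minus control, -0.38 in CKD+Fe minus CKD and -0.37 in CKD+Fe minus control. The Cldn16 ratio moved to 1.99 in CKD and 1.03 in CKD+Fe, and the Cldn19 ratio to 2.38 in CKD, all minus control. The sign turned for Cldn2 in CKD minus control (0.15 with quantile normalization, 0.11 with equal totals), for Umod (-0.13 with median-of-ratios rescaling, -0.045 without the 3 mice as well, -0.17 over every gene above 0) and for Klhl3 (-0.37, -0.48 and -0.40 in the same settings, -0.77 with quantile normalization, -0.041 without the 3 mice, and -0.21 to 0.29 with a mouse left out). In CKD+Fe minus CKD it turned for Cldn8 (-0.21 to 0.16 with a mouse left out, 0.039 with rescaling and without the 3 mice) and for Cldn19 (-0.073 to 0.12 with a mouse left out). The cause was not tested. No paired analysis was possible because the groups share no replicate numbers. Without read counts, low genes such as Cldn14 and Cldn23 have no known depth.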
